A study of Mus musculus with 47 samples.

Results

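The plasminogen activator genes Plau, Plaur and Plat are described here in NMuMG, a line of mouse mammary epithelial cells, by the chromatin immunoprecipitation sequencing (ChIP-seq) peaks that lie at them. The 3 genes were chosen by name out of 21883 protein-coding genes. Their peaks were all those of every deposited list that overlap the gene span (mm10) or 10 kb to either side, with 50 kb as a wider view. Plau encodes urokinase (uPA), Plat encodes tissue plasminogen activator (tPA), and Plaur encodes the urokinase receptor (uPAR). Peaks were available for cells with a Pbrm1 knockout (KO) and for control cells. Each genotype was either left without transforming growth factor β1 (TGFβ1; 0 h) or given 5 ng/ml of it for 24 or 48 h to bring on an epithelial to mesenchymal transition. PBRM1 and PHF10 are subunits of PBAF, a SWI/SNF chromatin remodeller, and BRG1 is a SWI/SNF ATPase. KO cells were profiled for PHF10 at 0 and 48 h, for the bZIP transcription factor ATF3 at 0, 24 and 48 h, and for the AP-1 proteins FOSL2 and FOSB at 0 and 48 h. Control cells were profiled for the same proteins at the same times, for PHF10 also at 24 h, for BRG1 at 0 h, and for 5 histone marks at 0 and 48 h. The labels give the knockout by its gene alone and do not say whether the cells are 1 clone.

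Of 47 samples, 32 had a peak list and 15 were inputs. Only PHF10 in control cells was replicated, with 2 libraries for each of 48 h and 0 h, and every other list stood for its group alone. The lists held 806216 peaks, and the length of a single list ran between 2 and 158815. No read total was used here and depth is therefore unknown, so a longer list can come with more reads as well as with more binding. PBRM1 itself was not profiled, so the lists hold no check of the knockout. Of the markers of mammary or simple epithelium, 11 of 11 had an H3K4me3 and an H3K27ac peak in untreated control cells, as did 0 of 5 blood markers, 2 of 4 endothelial markers, 4 of 6 fibroblast or mesenchyme markers and 1 of 2 adipocyte markers. In such bulk chromatin, a site bound in fewer cells and a site bound less often in every cell cannot be told apart.

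Urokinase and tissue plasminogen activator are serine proteases that cut plasminogen into plasmin, which degrades fibrin and matrix proteins. Urokinase is held at the cell surface by its receptor uPAR, where it acts on plasminogen that is bound to annexin A2 and S100A10. Inhibitors of the serpin family act on both activators, and AP-1 sites are known regulators of Plau and Plaur in human and mouse cells.

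The RefSeq promoter of Plaur (GRCm38.p6, plus strand, chr7:24462233-24462532, 250 bases before to 50 bases after the start of transcription) is printed because peaks of 10 lists lay over it and because it holds an AP-1 motif. That of Anxa2 (plus strand, chr9:69453433-69453732), the annexin A2 gene, is printed as a pathway promoter that both FOSL2 lists of 48 h covered. That of Cadm4 (plus strand, chr7:24481773-24482072), a cell adhesion gene that begins 6053 bp beyond Plaur, is printed because 19 of the 22 lists with a peak in the Plaur window had one over it. Capitals mark the AP-1 motif TGANTCA, which reads the same on both strands.
Plaur promoter: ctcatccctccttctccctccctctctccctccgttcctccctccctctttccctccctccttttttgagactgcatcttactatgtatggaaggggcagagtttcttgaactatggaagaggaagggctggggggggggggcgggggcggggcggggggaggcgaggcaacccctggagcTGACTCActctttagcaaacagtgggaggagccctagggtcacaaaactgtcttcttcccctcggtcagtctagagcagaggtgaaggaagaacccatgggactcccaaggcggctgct
Anxa2 promoter: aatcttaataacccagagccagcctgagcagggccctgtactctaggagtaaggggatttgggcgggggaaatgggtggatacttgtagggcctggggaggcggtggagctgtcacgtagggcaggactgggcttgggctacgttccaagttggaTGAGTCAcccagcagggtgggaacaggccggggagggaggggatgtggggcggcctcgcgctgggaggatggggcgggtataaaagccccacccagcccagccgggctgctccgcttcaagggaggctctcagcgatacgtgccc
Cadm4 promoter: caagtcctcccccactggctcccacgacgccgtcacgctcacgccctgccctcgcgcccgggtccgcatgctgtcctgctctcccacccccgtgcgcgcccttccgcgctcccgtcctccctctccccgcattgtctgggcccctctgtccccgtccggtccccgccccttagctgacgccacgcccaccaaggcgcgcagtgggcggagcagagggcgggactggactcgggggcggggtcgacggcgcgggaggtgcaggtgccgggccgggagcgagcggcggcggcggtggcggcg
The Plaur promoter has TGACTCA at bases 182 to 188 of the window, the first of them 69 bases before the start of transcription. Anxa2 has TGAGTCA at bases 156 to 162, and Cadm4 has no match. Of the pathway promoters not printed, those of Serpinb2 hold TGAATCA, and 0 lists had a peak over them. Peaks were counted over the printed windows and not over the motif. The 10 lists with a peak over the Plaur window included no list of FOSL2 or FOSB, the AP-1 proteins profiled. In the Plaur window, the KO ATF3 peak of 48 h (chr7:24462498-24462825) began after the start of transcription (24462483). It did not cover the motif, nor did the PHF10 peak of the first control library, the H3K14ac peak or either H3K18ac peak. The AP-1 motif was present in 7.81% of 32851 RefSeq promoters of the same length. The CRE motif TGACGTCA was present in 1.79% of them and in none of these 3. Plau and Plat are named only.

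The 3 genes carried 114 peaks within 10 kb, of which Plau had 14 in 12 lists, Plaur had 79 in 22 lists and Plat had 21 in 8 lists. The other 10 lists had no peak at any of them. These were the ATF3 lists of KO cells at 0 and 24 h and of control cells at 0 h, the FOSL2 lists of KO cells at 0 h and of control cells at 0 and 48 h, and the 4 FOSB lists. Plau (chr14:20836662-20843388) has no neighbour in its window. The window of Plaur (chr7:24460937-24475970) reaches the start of Cadm4, and that of Plat (chr8:22757722-22782848) reaches Ap3m2, 4506 bp beyond it, which encodes an adaptor protein subunit. The nearest gene was taken among protein-coding genes only. Of the Plaur peaks, 30 lay nearer to another such gene, as did 4 of the Plat peaks and 0 of the Plau peaks. Peaks that had a member as their nearest protein-coding gene numbered 14 for Plau, 49 for Plaur and 17 for Plat. The long non-coding RNA genes Gm36159 and LOC115486505, 9602 and 8650 bp below Plaur, were left out of this rule. The KO peaks of 48 h at chr7:24453435-24454070 (PHF10) and chr7:24453405-24454058 (ATF3) count for Plaur but lay nearer to LOC115486505. Distances below run from the lower end of each gene span, and positions are those deposited.

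**Figure D1:**
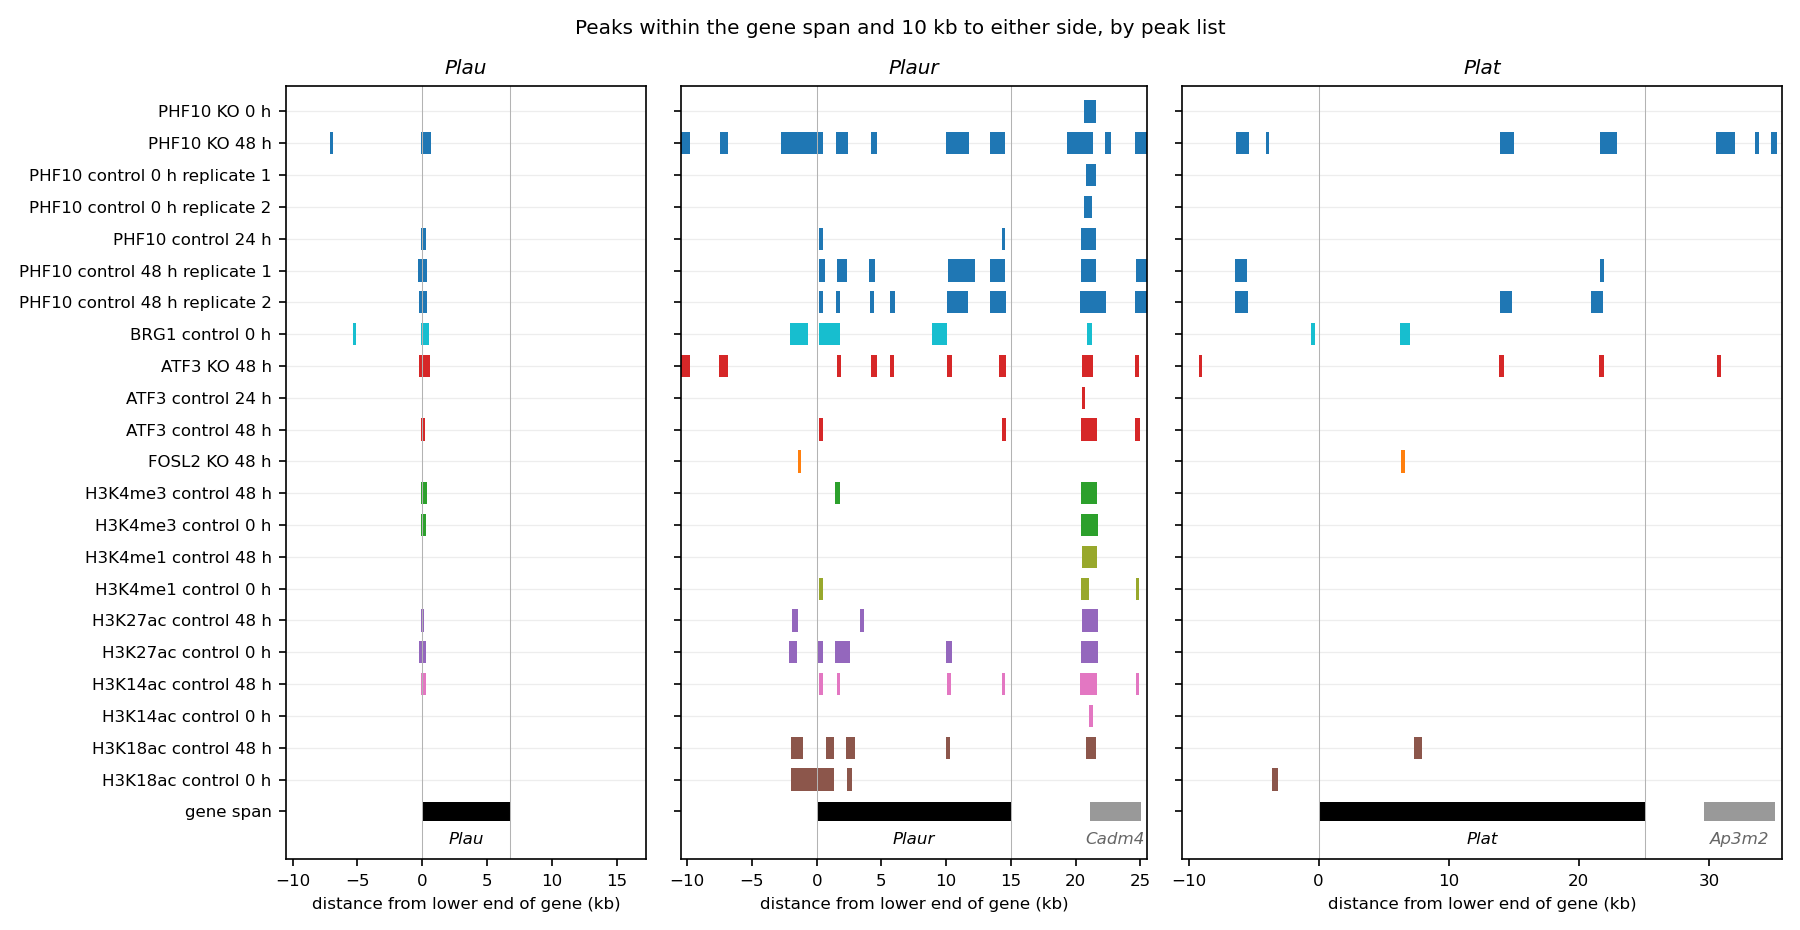
Peaks of the 22 lists with a peak at Plau, Plaur or Plat. Each bar is 1 peak, drawn to scale against the distance from the lower end of the gene in kb (bars under 0.25 kb are widened to that size), with the gene span in black and a protein-coding neighbour in grey below. Plau has 1 site shared by 12 lists at its lower end. Plaur has several sites along the gene plus those at and beyond the start of Cadm4. Plat has no peak of H3K4me3, H3K4me1, H3K27ac or H3K14ac.

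**Figure D2:**
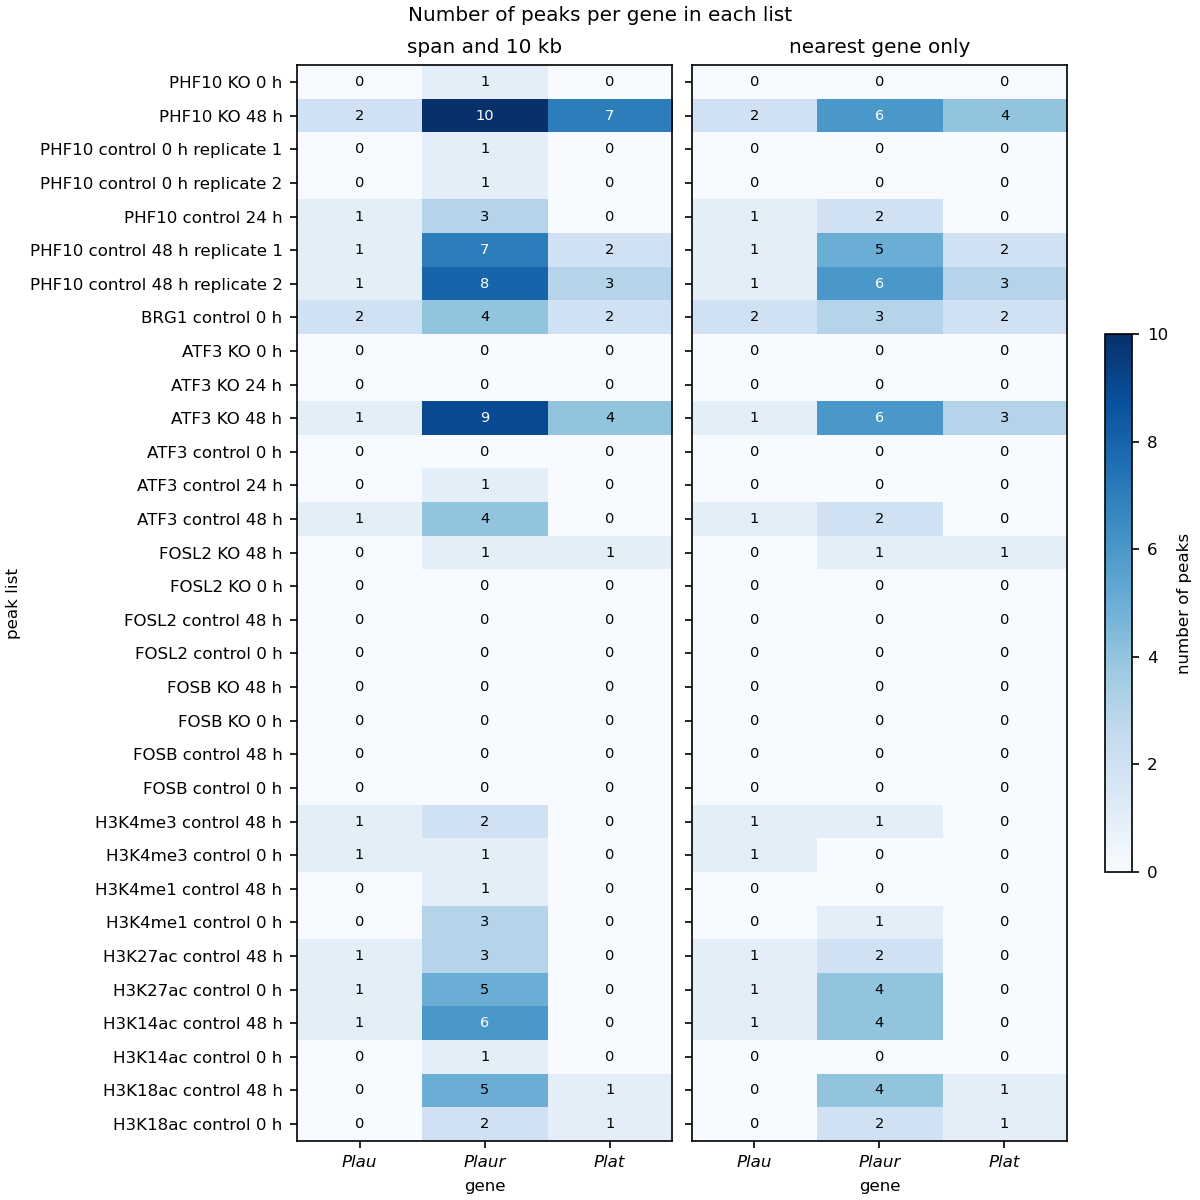
Number of peaks in each of the 32 lists (rows) at Plau, Plaur and Plat (columns), on the left within the gene span and 10 kb to either side and on the right only for peaks whose nearest protein-coding gene it is. The largest number is the 10 PHF10 peaks at Plaur in KO cells at 48 h, of which 6 had Plaur as the nearest gene.

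Plau, the urokinase gene, had a single site at its lower end that served as the point of overlap for 12 of its 14 peaks. Control ATF3 at 48 h gave it as chr14:20836558-20836881, or 104 bp before to 219 bp after the lower end. The 12 lists were 4 of PHF10, BRG1, 2 of ATF3, 2 of H3K4me3, 2 of H3K27ac and H3K14ac at 48 h. No peak of H3K4me1, H3K18ac, FOSL2 or FOSB lay within 10 kb of Plau at any time profiled.

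At this Plau site PHF10 had a peak in KO cells at 48 h (fold enrichment 3.22) and none in KO cells at 0 h. In control cells it had none in either library at 0 h, one of 2.96 at 24 h, and ones of 4.80 and 2.63 in the 48 h libraries. The fold enrichment is the authors' value for each peak over input and was used to place peaks within their own list. As an alternative setting, a cut of at least 5 was applied to every list, although the lists differ in fold scale. The peak of 4.80 ranked in the top 4.0% of its list and that of 2.63 in the top 74.3%, so the 48 h libraries placed the same site very differently. BRG1 had a peak of 2.88 there at 0 h, where neither control PHF10 library of 0 h had one.

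The Plau site carried H3K4me3, a promoter mark, at 48 h (10.9) and at 0 h (14.03). H3K27ac, a mark of active promoters and enhancers, was called over 268 bp at 48 h (3.90) and over 585 bp at 0 h (12.7). H3K14ac had a peak there at 48 h (16.9) and none at 0 h. The other 2 Plau peaks lay before the gene, a BRG1 peak 5370 to 5121 bp below the lower end (4.35, in the top 3.35% of its list) and a PHF10 peak in KO cells at 48 h, 7145 to 6915 bp below it (3.19).

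Plaur, the uPAR gene, had sites before the gene, at the lower end of the span, at the RefSeq start of transcription 1546 bp further in, within the gene and at its end. The site before the gene was marked by the KO FOSL2 peak of 48 h, chr7:24459466-24459756, 1471 to 1181 bp below the lower end (7.86). BRG1 covered it at 0 h (4.01, in the top 5.48% of its list), as did PHF10 in KO cells at 48 h within a peak of 3248 bp (3.35). H3K18ac covered it at 48 h (7.13) and at 0 h, when a single H3K18ac peak of 3337 bp ran to 1323 bp inside the gene (19.7, in the top 0.363% of its list). H3K27ac overlapped it by its edge at 48 h (8.51), and its 0 h peak (7.22) ended 1500 bp below the lower end, just short of it.

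The site at the lower end of Plaur (control ATF3 at 48 h, chr7:24461130-24461422) had peaks in 10 lists. ATF3 was called there in control cells at 48 h (6.13) and had no peak there in KO cells at 48 h. PHF10 was called there in KO cells at 48 h, in control cells at 24 h (3.03) and in both control libraries of 48 h (3.26 and 3.76). H3K27ac had a peak there at 0 h (17.02) and none at 48 h, and H3K4me1, a mark of enhancers and promoter flanks, did likewise (3.63 at 0 h). H3K14ac had the reverse pattern, with a peak of 9.16 at 48 h and none at 0 h. BRG1 and the long H3K18ac peak, both of 0 h, completed the 10.

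At the RefSeq promoter of Plaur, printed above, H3K4me3 was called at 48 h (4.04, chr7:24462386-24462753, in the top 85.2% of its list) and not at 0 h. H3K27ac was called there at 0 h (5.55) and not at 48 h. PHF10 overlapped it in KO cells at 48 h (3.10) and in both control libraries of 48 h (2.94 and 2.45), and ATF3 had a peak there in KO cells at 48 h (2.70) but none in control cells. H3K14ac had one at 48 h (5.15), and FOSL2 and FOSB had none. H3K18ac peaks reached into the promoter window at 48 h (4.68) and at 0 h (19.7), and BRG1 overlapped it at 0 h (3.12). Each mark had 1 library a time.

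Within Plaur, a site 10010 to 10442 bp from the lower end had peaks in 8 lists. They were PHF10 in KO cells at 48 h (2.80) and in both control libraries of 48 h (2.69 and 3.48), BRG1 (3.25), KO ATF3 at 48 h (3.83), H3K27ac at 0 h (6.72), H3K14ac at 48 h (5.84) and H3K18ac at 48 h (3.01). The site at the end of the gene (chr7:24475217-24475555) had peaks in 7 lists. ATF3 was called there at 48 h in KO cells (5.90, in the top 2.29% of its list) and in control cells (7.25), and PHF10 in control cells at 24 h (4.07). At 24 h PHF10 lay at this site, at the lower end of the span and at Cadm4, and not at the sites between.

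The site around the start of Cadm4 (control ATF3 at 48 h, chr7:24481312-24482580) had a peak in 20 of the 22 lists with a peak in the Plaur window. Of these, the control ATF3 peak of 24 h (chr7:24481391-24481634) ended before the printed promoter. The H3K27ac peaks of this site had fold enrichments of 81.9 at 48 h and 106 at 0 h, and its H3K4me3 peaks 30.4 at 48 h and 51.2 at 0 h. The only PHF10 peaks in the Plaur window of untreated cells lay at Cadm4, with 5.48 in KO cells and 11.2 and 4.18 in control cells.

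Plat, the tPA gene, had no H3K4me3, H3K4me1, H3K27ac or H3K14ac peak within 10 kb, at 48 h or at 0 h. Its fold enrichments ran between 2.43 and 5.56. BRG1 had peaks at 0 h that lay 569 to 285 bp below the lower end (3.55) and 6279 to 7013 bp above it (2.60). H3K18ac had 1 peak at 48 h (7311 to 7922 bp above the lower end; 3.13) and 1 at 0 h (3573 to 3112 bp below it; 5.47), and these did not overlap. The other Plat peaks were of PHF10, ATF3 and FOSL2 after TGFβ1.

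PHF10 lay 6.4 kb before Plat at 48 h in KO cells (3.19) and in both control libraries (3.97 and 3.28; chr8:22751316-22752221 in the first). A site about 21.7 kb into the gene had PHF10 at 48 h in KO cells (3.51) and in both control libraries (2.56 and 2.47), and ATF3 in KO cells (3.35). At chr8:22771612-22771990 ATF3 was called in KO cells at 48 h (4.59), with PHF10 in KO cells (3.16) and in the second control library of 48 h (2.65). No PHF10 peak lay within 10 kb of Plat at 0 h in either genotype or in control cells at 24 h.

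The first comparison asked where PHF10 lay after TGFβ1 in control cells. The 3 genes together had 10 and 12 PHF10 peaks in the 48 h libraries, against 1 and 1 in the 0 h libraries. Plau had 1 and 1 at 48 h and 0 and 0 at 0 h, Plaur had 7 and 8 against 1 and 1, and Plat had 2 and 3 against 0 and 0. At each of the 3 genes both 48 h libraries had more peaks than either 0 h library, as at 52.1% of all genes. The means were 11 ± 1.41 peaks at 48 h and 1.0 ± 0.0 at 0 h (SD, n = 2 each), a difference of 10 peaks with an exact two-sided permutation p of 0.333, the smallest that 2 libraries against 2 allow. The labels do not say whether these libraries came from separate cultures, and this p therefore measures the spread between libraries only.

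Plau and Plat had PHF10 peaks in both 48 h libraries and in neither 0 h library, a class that held 14.5% of all protein-coding genes. By nearest gene, a rule added after the data were seen, Plaur joined them, with 8 and 10 peaks at the 3 genes at 48 h against 0 and 0 at 0 h, and the class held 17.4% of all genes. The lists were also longer, with 43549 and 102434 peaks at 48 h against 11285 and 14731 at 0 h, and 75.0% and 83.8% of all genes had a peak at 48 h against 48.2% and 59.1% at 0 h. Of all genes, 5.79% had at least as many PHF10 peaks in their windows as Plaur in the first 48 h library and 17.6% in the second. The Plaur window counts include peaks at and beyond the start of Cadm4. By nearest gene Plaur had 5 and 6, and no such share was computed for these. With the lists reduced to equal length by significance, the difference at the 3 genes was 1.5 peaks, with a −log10 q of at least 5 it was 1.0 (exact permutation p = 1.0), and with a fold of at least 5 it was -0.5. The fold cut met lists of unlike scale, with median folds of 2.99 and 2.92 at 48 h against 8.70 and 3.93 at 0 h. The only peak it kept was that of the first 0 h library at Cadm4 (11.2), so the -0.5 does not describe PHF10 at the members themselves.

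At 24 h control cells had 1 PHF10 peak at Plau, 3 at Plaur and 0 at Plat, when 71.3% of all genes had one. Plau was the member with a peak at 24 h and none in either 0 h library, as were 10.8% of all genes. That peak ranked in the top 95.8% of its list by fold. With the lists at equal length, or with a −log10 q of at least 5, 1 member had a peak at 24 h and 1 at 0 h. Over 0, 24 and 48 h, Plau had 0 and 0, then 1, then 1 and 1 peaks in control cells, Plaur had 1 and 1, then 3, then 7 and 8, and Plat had 0 and 0, then 0, then 2 and 3. Each Plaur peak of 24 h overlapped a peak of both 48 h libraries.

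**Figure D3:**
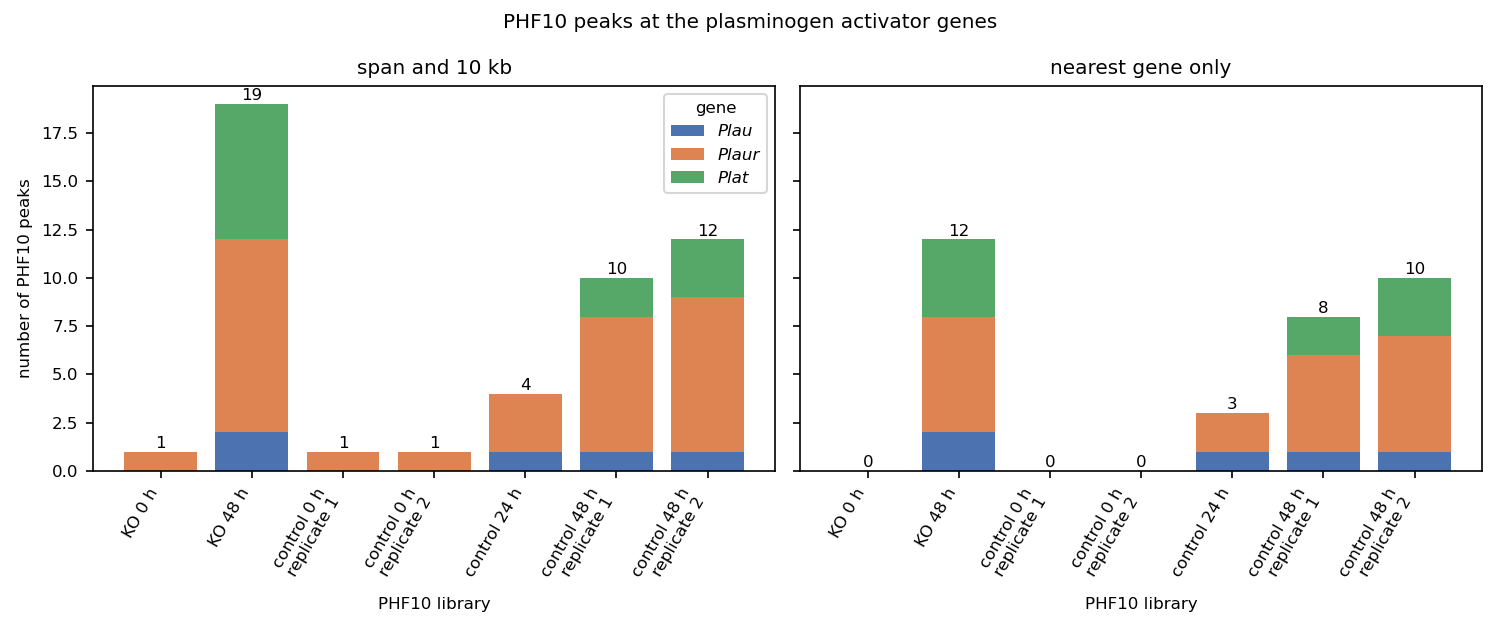
PHF10 peaks (vertical axis, number) at Plau, Plaur and Plat, stacked for each PHF10 library, within the span and 10 kb (left) and by nearest gene only (right). On the left, KO cells had 19 peaks at 48 h and 1 at 0 h. Control cells had 1 and 1 at 0 h, 4 at 24 h and 10 and 12 at 48 h. On the right, KO cells had 12 at 48 h and control cells had 8 and 10.

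PHF10 was called at all 3 genes at 48 h in KO cells as in control cells. KO cells had 2 peaks at Plau, 10 at Plaur and 7 at Plat at 48 h, and control cells had 1 and 1, 7 and 8, and 2 and 3. By nearest gene, KO cells had 2, 6 and 4, and control cells had 1 and 1, 5 and 6, and 2 and 3. The other KO peaks in the windows of Plaur and Plat lay nearer to another gene. The KO list of 48 h was the longest, and 87.9% of all genes had a peak in it. With a −log10 q of at least 5, 0 members had a peak at 48 h in KO cells and a mean of 1 in control cells. With these lists at equal length, 2 members had one in KO cells and a mean of 2.5 in control cells. Genes with a peak in KO cells and in neither control library made up 4.25% of all genes at 48 h, and none of the 3 members belonged to them. At 0 h Plaur had 1 peak in KO cells (at Cadm4; 52.4% of all genes had a peak) and 1 in each control library, Plau and Plat had 0 in every library, and 1.06% of all genes had a peak in KO cells only. Within KO cells, Plau and Plat had PHF10 at 48 h and not at 0 h, as did 35.6% of all genes, and with the 2 lists at equal length the number of members with a peak was 0 at 48 h and 1 at 0 h. With 1 KO library a time, these values have no replicate check.

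ATF3 was absent from all 3 genes in the 0 h lists of both genotypes and was called at 48 h in both. KO cells had 1 peak at Plau, 9 at Plaur and 4 at Plat at 48 h, and control cells had 1, 4 and 0. By nearest gene, KO cells had 1, 6 and 3, and control cells had 1, 2 and 0. In control cells Plau and Plaur had a peak at 48 h and none at 0 h, as did 76.4% of all genes. The 0 h lists held 25 peaks in KO cells and 20 in control cells in all, at 0.064% and 0.0594% of all genes, so they say little of any 1 gene. At 24 h KO cells had no peak at the members (0.114% of all genes had one) and control cells had 1 (7.0% of all genes had one), of 2.87, in the Plaur window and next to Cadm4. That class, in control cells and not in KO cells, held 6.99% of all genes, and by nearest gene no member was in it.

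At 48 h Plat had ATF3 in KO cells and not in control cells, as did 9.91% of all genes. The KO list was also the longer, with 144513 peaks against 45716 in control cells, and a peak was present at 84.6% of all genes in KO cells and at 76.4% in control cells. When only peaks with a fold of at least 5 were kept, 1 member had a peak in KO cells and 2 in control cells. The median fold of the list was 3.52 in KO cells and 6.75 in control cells, so this cut met unlike scales. At equal list length both genotypes had 2 members with a peak. The sites that both genotypes shared were the lower end of Plau, the end of Plaur and the 2 sites at and beyond the start of Cadm4.

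FOSL2 was called at Plaur and Plat in KO cells at 48 h and at none of the 3 genes in control cells at 48 h. Genes with a FOSL2 peak in KO cells and none in control cells made up 8.63% of all genes, and 7.16% by nearest gene. The Plaur peak lay before the gene, described above, and the Plat peak lay inside it, at chr8:22764049-22764373 (5.56, in the top 82.5% of its list). The KO list held 7381 peaks and the control list 3444, so that 17.2% of all genes had a peak in KO cells and 9.22% in control cells. With the lists at equal length, neither genotype had a FOSL2 peak at the members. At 0 h the FOSL2 lists held 5 peaks in KO cells and 7 in control cells, at 0.00457% and 0.00914% of all genes and at none of the members.

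FOSB had no peak within 10 kb of the 3 genes in KO or control cells. Of all genes, 0.096% had one in KO cells at 48 h and 0.717% in control cells at 48 h, and 0.00914% had one at 0 h in each genotype, so that the length of these lists could not show a difference at 3 genes.

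Both FOSL2 peaks of KO cells lay over peaks that BRG1 had in untreated control cells. Of all KO FOSL2 peaks, 41.8% lay over a BRG1 peak of 0 h, and 33.9% of the 4314 that overlapped no control FOSL2 peak did. BRG1 had 2 peaks at Plau, 4 at Plaur and 2 at Plat, and 56.7% of all genes had one. ATF3 peaks of 48 h lay over BRG1 peaks in 4 of 14 cases at the members in KO cells and in 3 of 5 in control cells, beside 12885 of 144513 over the whole KO list and 7790 of 45716 over the whole control list.

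Across the histone marks, the same members had a peak at 48 h and at 0 h for H3K4me3, H3K4me1, H3K27ac and H3K18ac when the 10 kb window was used, and H3K14ac differed by Plau. H3K4me3 lay at Plau and Plaur at both times, and 73.2% of all genes had a peak at 48 h and 73.5% at 0 h. By nearest gene, Plaur had H3K4me3 at 48 h and not at 0 h, a class of 1.34% of all genes, and H3K4me1 at 0 h and not at 48 h, a class of 11.6%. H3K27ac had 1 peak at Plau at 48 h and 1 at 0 h, and 3 at Plaur at 48 h and 5 at 0 h, when 59.2% of all genes had a peak at 48 h and 66.6% at 0 h.

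H3K14ac was called at Plau at 48 h and not at 0 h, as at 56.4% of all genes, and the lists held 35270 peaks (at 74.4% of all genes) at 48 h and 3453 (at 18% of all genes) at 0 h. Plaur had 6 H3K14ac peaks at 48 h and 1 at 0 h, which lay at Cadm4. At equal list length the number of members with an H3K14ac peak was 0 at 48 h and 1 at 0 h. H3K18ac had 5 peaks at Plaur and 1 at Plat at 48 h, and 2 at Plaur and 1 at Plat at 0 h, with 45.1% of all genes having a peak at 48 h and 24.3% at 0 h. H3K4me1 had 1 peak in the Plaur window at 48 h and 3 at 0 h, with 43.3% of all genes having a peak at 48 h and 50.0% at 0 h.

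In the wider view of 50 kb, Plau had 55 peaks, Plaur 215 and Plat 71. Below Plau, the upper end of Camk2g, a calmodulin-dependent kinase gene, carried strong marks, with H3K27ac of 111 at 48 h and 68.5 at 0 h. Between Camk2g and Plau, about 30 kb below Plau and over no gene of the table, BRG1 had a peak at 0 h (chr14:20805134-20806309; 4.58), H3K27ac and H3K4me1 had peaks at 0 h (6.23 and 3.43) and none at 48 h, and H3K14ac had one at 48 h (4.15) and none at 0 h. PHF10 had peaks there at 48 h in KO cells (2.92) and in the second control library (3.12). H3K18ac at 0 h had peaks 32085 to 31737, 31454 to 30803 and 29323 to 29088 bp below Plau. At 48 h it had one 32115 to 31853 bp below Plau and 3 between 27091 and 24431 bp below it. At Plat, the H3K4me3, H3K27ac and H3K14ac peaks within 50 kb lay near the upper end of Ap3m2 or beyond it.

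Other genes of the system were taken from a list of 18, of which 18 were found in the RefSeq table. FOSL2 was called at 7 of 18 in KO cells at 48 h (38.9%, against 17.2% of all genes) and at 4 of 18 in control cells (22.2%, against 9.22%). In KO cells and not in control cells the list had S100a10, the plasminogen receptor subunit that pairs with annexin A2 (8.42), Serpinb2, which encodes the inhibitor PAI-2 (7.30), and Eno1, whose enolase also binds plasminogen (5.33). They made up 16.7% of the list, against 8.63% of all genes. Among the genes with FOSL2 in both genotypes were Anxa2 (10.9 in KO cells and 6.03 in control cells, over the promoter printed above), Lrp1, a clearance receptor for activator and inhibitor complexes (6.88 in KO cells and 9.37 in control cells), and Itgam (3.37 in KO cells and 4.69 in control cells).

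**Figure D4:**
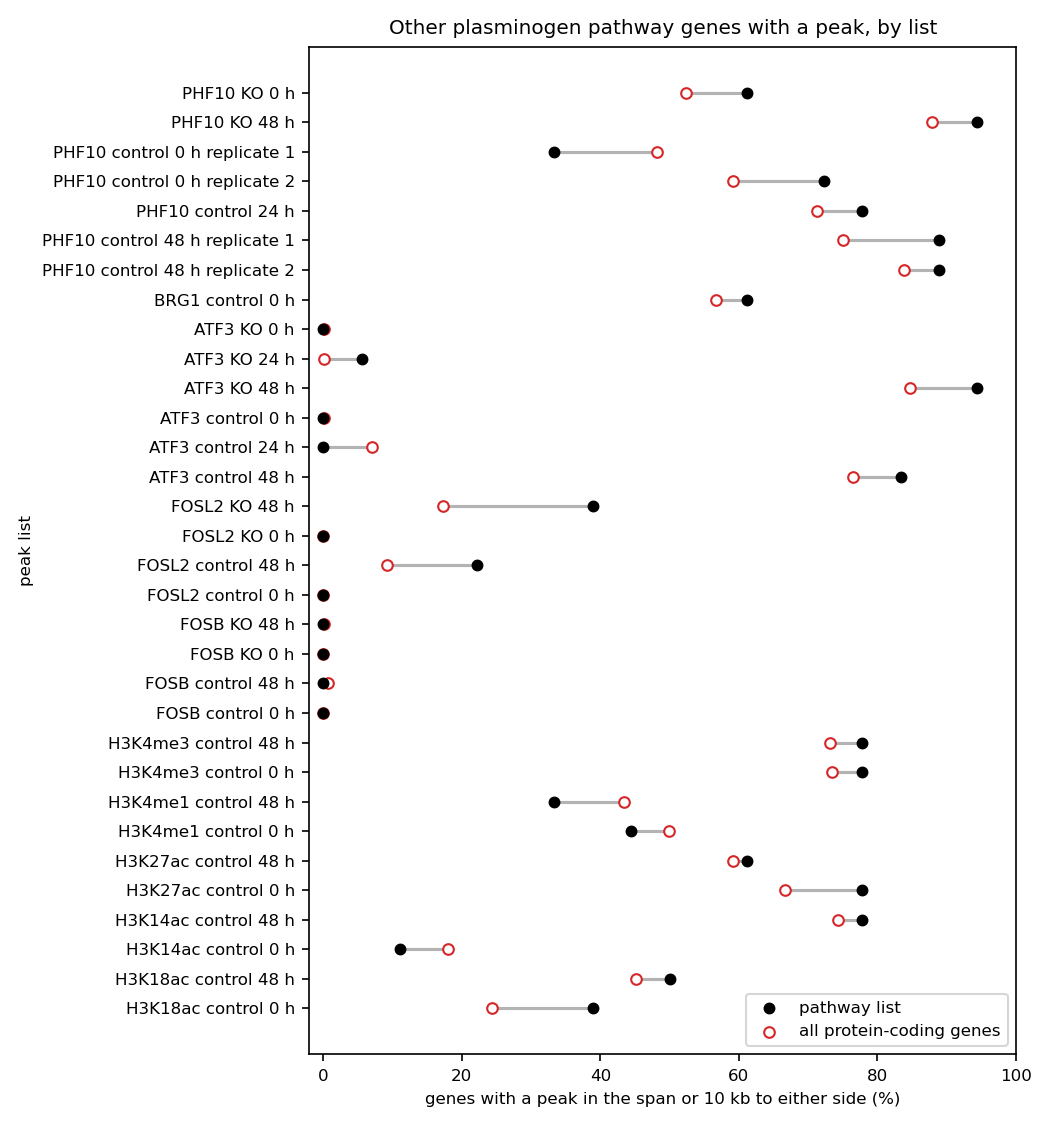
Share of the 18 other pathway genes (filled points) and of all 21883 protein-coding genes (open points) with a peak within the span and 10 kb, in % on the horizontal axis, for each of the 32 lists. The FOSL2 list of KO cells at 48 h has 38.9% of the pathway genes and 17.2% of all genes, and that of control cells at 48 h has 22.2% and 9.22%.

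PHF10 lay at 17 of the 18 pathway genes in KO cells at 48 h, and at 16 and 16 in the control libraries of 48 h, against 11 in KO cells and 6 and 13 in control cells at 0 h. Those were 94.4% of the list in KO cells at 48 h (87.9% of all genes), and 88.9% in each control library of 48 h (75.0% and 83.8%). At 0 h they were 61.1% in KO cells (52.4% of all genes), and 33.3% and 72.2% in control cells (48.2% and 59.1%). Genes with PHF10 in both control libraries of 48 h and in neither of 0 h made up 16.7% of the list, against 14.5% of all genes. Among them were Plg, the plasminogen gene (strongest peak 4.04), and Serpinf2, which encodes the plasmin inhibitor α2-antiplasmin (2.77). ATF3 at 48 h lay at 17 list genes in KO cells and at 15 in control cells, or 94.4% in KO cells (84.6% of all genes) and 83.3% in control cells (76.4%). Plg (4.14) and Serpinb2 (3.52) had it in KO cells and not in control cells, 11.1% of the list against 9.91% of all genes. At 24 h Plg had the only ATF3 peak at the 18 genes, in KO cells (6.19), or 5.56% of them against 0.114% of all genes. That KO list held 69 peaks, so 1 gene says little. In control cells at 24 h, 0 of the 18 had one, against 7.0% of all genes.

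H3K27ac at 0 h and not at 48 h was found at Mrc2 (5.05), a collagen receptor that associates with uPAR, Itgam (3.85) and Serpinf2 (3.16), or 16.7% of the list against 8.49% of all genes. H3K14ac was called at 12 of the 18 list genes at 48 h and not at 0 h, or 66.7% against 56.4% of all genes, among them Anxa2 (31.3) and S100a10 (23.6). Pathway genes were counted by the 10 kb window alone, without a rule on the nearest gene.

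The genes with the most similar peak numbers, by Euclidean distance of log2(1 + peaks) over the 32 lists, were Hikeshi (0), 9130008F23Rik (0.585) and Zfp748 (0.585) for Plau, where the median gene stood at 3.88. For Plaur they were Tnni1 (1.34), Rassf8 (1.91) and Lad1 (2.11; median 5.75). For Plat they were Serpina9 (0.887), Vtcn1 (1.24) and Micalcl (1.27; median 4.94). Hikeshi had the same number of peaks as Plau in each of the 32 lists. The lists share cells, inputs and lengths, so these distances are a description only.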

How the data were processed

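Peaks of 32 ChIP-seq libraries were used as deposited, 1 list per library. Named in the submitters' processing notes, without settings, are mm10, MACS3 3.0.0a7, Bowtie2 2.3.3, fastp 0.19.5, deepTools 3.5.1 and Partek 11.0.24.0325. DSG and formaldehyde were used in sequence for 14 lists (ATF3, BRG1 and PHF10) and formaldehyde alone for the rest, per the labels' protocols. The deposited pileup signal was not compared. The deposited −log10 p and q values served to rank and filter peaks, and the deposited fold enrichment, the authors' ratio over input, to order, filter and describe the peaks of 1 list at a time. The PHF10 and BRG1 lists (8) have no summits and include peaks of lower −log10 q than the others.

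Peaks were assigned with Python 3.11.15, pandas 2.3.3 and bedtools 2.31.1 to RefSeq spans (GRCm38.p6, without strand) extended by 10 kb, and counted also for all protein-coding genes. Peaks overlapping by 1 bp were called shared. Deposited starts may differ by 1 bp from browser positions. An exact permutation test (two-sided) was possible only for control PHF10 at 48 h against 0 h. Pathway genes were named per comparison, up to 5, when a peak was present in 1 arm and absent from the other, ranked by fold, together with members, neighbours and the 3 most similar genes. Peak values of Anxa2, Lrp1, Itgam and Camk2g in further lists were added after they were seen. Counts over the pathway list include 1 gene that is not reported here. Members, lists and tests were chosen with earlier results of these data known. Assignment was tested on simulated data. Alternatives were other windows, stricter peaks, merged peaks, equal list lengths, left-out replicates and the replicate block.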

Additional observations from a re-analysis of the deposited data

How the results depend on the processing

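PHF10 in control cells at 48 h against 0 h gave 10 more peaks at the 3 genes, and the same sign with a 2 kb window (8), a 50 kb window (25), peaks merged within 1 kb (9), nearest gene only (9), equal list length (1.5) and a −log10 q of at least 5 (1.0), but -0.5 with a fold of at least 5. The fold cut kept only a 0 h peak at Cadm4. Leaving out each library gave 9 to 11 peaks. Same-numbered replicates did not deviate together (r = -0.108 over 18576 genes, 2 pairs), but 2 pairs cannot settle whether they belong together. The replicate block gave the same difference of 10 with an exact permutation p of 0.5. The crossed pairing, added after the data were seen, gave 10 with the same p. The values below are differences in the number of members with a peak, of 3, first arm minus second, and the cause of each change was not tested.

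A fold of at least 5 gave 0.5 for PHF10 at 24 h against 0 h and for KO against control PHF10 at 0 h, -1 for PHF10 in KO cells at 48 h against 0 h, for KO against control ATF3 at 48 h, and for H3K27ac and H3K18ac, 1 for H3K4me1, and 0 for ATF3 at 24 h (against 0 h and KO against control). A −log10 q of at least 5 gave 0 for PHF10 at 24 h against 0 h, -1 for KO against control PHF10 at 48 h and for PHF10 in KO cells, 0 for ATF3 at 24 h (both comparisons) and for KO against control ATF3 at 48 h, and 1 for H3K18ac. Equal list length, which keeps fewer peaks of the longer list, gave 0 for PHF10 at 24 h, -0.5 for KO against control PHF10 at 48 h, -1 for PHF10 in KO cells, 0 for control ATF3 at 48 and 24 h against 0 h and for KO against control ATF3 at 24 and 48 h, 0 for KO against control FOSL2 at 48 h, and -1 for H3K14ac and H3K18ac. It kept 20 peaks a list for control ATF3 against 0 h and 69 for KO against control ATF3 at 24 h. With so few peaks, those values of 0 say little of the members. A 2 kb window gave 2 for PHF10 at 24 h, 3 for PHF10 in KO cells, 0 for ATF3 at 24 h (both comparisons), 1 for H3K4me3 and H3K18ac, -1 for H3K4me1 and 2 for H3K14ac. A 50 kb window gave 0.5 for PHF10 at 24 h, -0.5 for KO against control PHF10 at 0 h, 1 for PHF10 in KO cells, 3 for control ATF3 at 48 h, 0 for KO against control ATF3 at 48 h and 2 for H3K14ac. Nearest gene only, added after the data were seen, gave 2 for PHF10 at 24 h, 3 for PHF10 in KO cells, 0 for ATF3 at 24 h (both comparisons), 1 for H3K4me3, -1 for H3K4me1 and 2 for H3K14ac. Merging within 1 kb changed none of the 17 comparisons by more than 1.5 times, and an overlap of 50% of the shorter peak left the shared peaks at 12 of 14 for Plau and 14 of 21 for Plat, and gave 76 in place of 78 of 79 for Plaur. Read totals were not used here, so depth limits every difference in peak number.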
